A study of Mus musculus with 6 samples.

Results

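The 10 core clock genes were examined in primary mouse white adipocytes that received miR-182-5p mimic or mimic control. They were taken by symbol from the 22609 genes listed for every sample, namely Nr1d1, Nr1d2, Arntl, Clock, Npas2, Per1, Per2, Per3, Cry1 and Cry2, and all 10 had enough reads to be tested. The cells of both groups were stromal vascular cells of inguinal fat from male C57BL6 mice aged 3 weeks by the sample labels, differentiated in culture, with 3 samples for each group and no genetic modification named in either. The labels describe transfection by electroporation and a control vector, whereas the study's methods describe a lipid reagent, a synthetic mimic and another age. The sources used here do not say whether the 3 samples of a group came from separate animals or cultures, so p-values measure the spread between these samples, which may be technical. They also give no hour of harvest and no step that sets the clocks of the cells to a common phase, which matters for genes whose level follows the time of day.

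The circadian clock of most mammalian cells is a loop of transcription factors. BMAL1 (encoded by Arntl) pairs with CLOCK or with its relative NPAS2, binds E-box sequences and drives the Per, Cry and Nr1d genes. PER and CRY proteins then block BMAL1-CLOCK, while REV-ERBα (Nr1d1) and REV-ERBβ (Nr1d2) bind RORE sequences and repress Arntl and several other genes, so in a running clock Arntl is usually low when the Nr1d genes have been high. In fat, REV-ERBα is known as a repressor of genes of heat production, and the study asked whether it links miR-182-5p to Fgf21, a hormone gene that REV-ERBα represses.

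No core clock gene passed the study's cutoffs of a 1.5-fold change and an adjusted p under 0.05, which 7.45% of the 13117 genes tested did. With the adjusted p alone, 8 of the 10 passed (3 higher, 5 lower), as did 46.7% of all genes tested. The 2 largest changes went in opposite directions within the BMAL1-CLOCK pair, since Arntl rose 1.48-fold and Clock fell to 68.5% of control. Nr1d1 fell as well, to 86.0% of control, and Nr1d2 to 74.7%. In those 8 genes the groups did not overlap, a pattern found in 54.8% of all genes tested. The median size of the log2 fold change, whatever its sign, was 0.32 for the 10 genes and 0.16 for all genes tested. Fold changes, their standard errors (SE) and p-values come from edgeR's quasi-likelihood fit, two-sided, with p-values adjusted by Benjamini-Hochberg over the genes tested. Levels are CPM, the usual depth-scaled read count, with library size scaled by the TMM method.

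**Figure D1:**
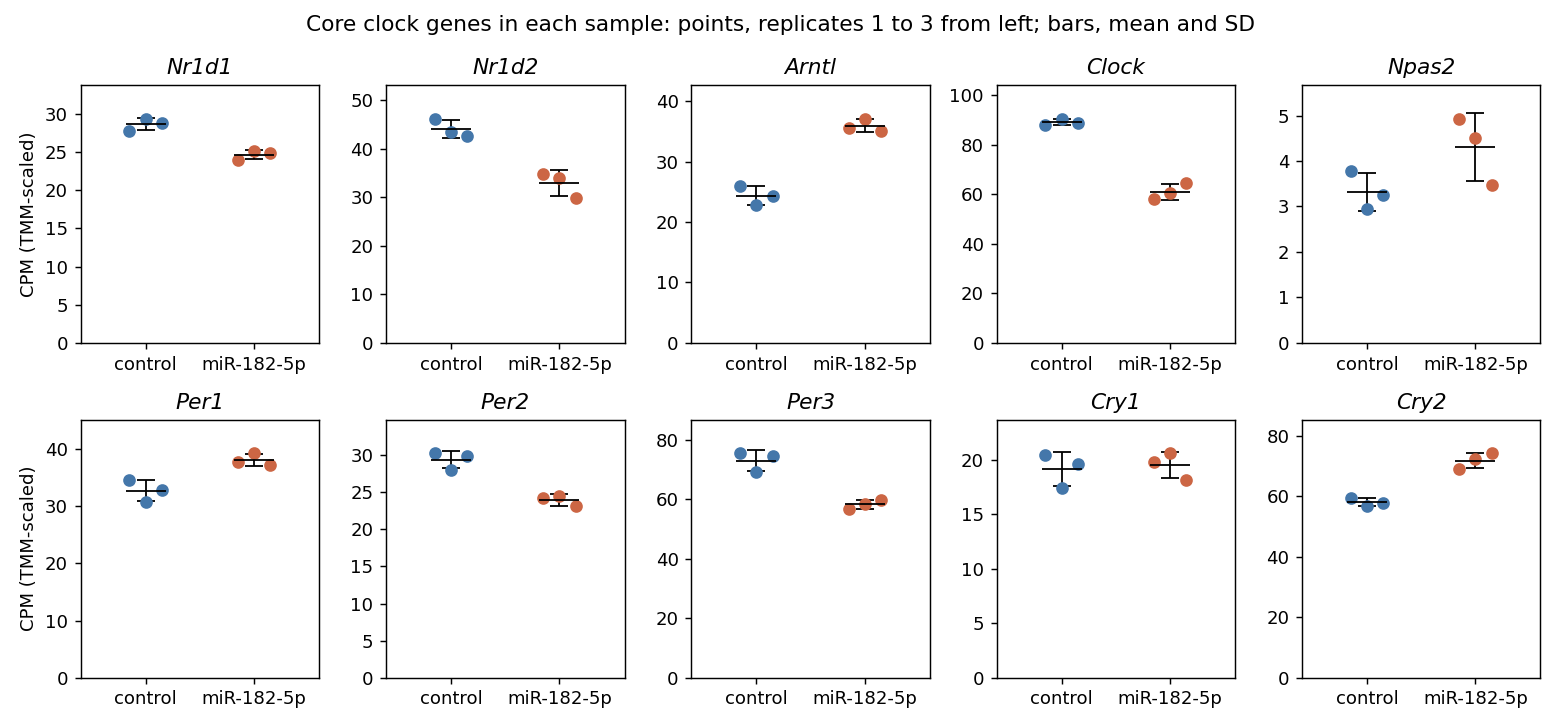
Level of each core clock gene in CPM (vertical axes, each starting at 0) in the 3 mimic control samples (blue) and the 3 miR-182-5p mimic samples (orange), replicates 1 to 3 from left to right, with the mean and SD as bars. Arntl, Per1 and Cry2 lie higher with the mimic, Nr1d1, Nr1d2, Clock, Per2 and Per3 lie lower, and the groups overlap for Npas2 and Cry1.

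Reads counted on genes numbered 25869810 to 26484794 in the control libraries and 25960631 to 28796712 in the mimic libraries. The Mir182 gene itself had 0 reads in all 6 libraries, which allows at most 0.103 to 0.118 CPM per library (3 reads), so the reads do not check the labels. Poly(A) selection leaves out mature miRNAs. The adipocyte markers were strongly present and lower in sum with the mimic, at 7417 to 7767 CPM in controls against 5002 to 5649 CPM. Of those 10 markers, 7 fell and 1 rose by adjusted p, where 23.5% of all genes tested fell and 23.2% rose. The 9 stromal progenitor markers summed to 21003 to 22142 CPM in controls and 20123 to 20989 CPM with the mimic (5 fell and 1 rose of 8 tested). Most of that sum was 1 gene that did not pass, at means of 19248 and 18643 CPM, so the sum says little of the others. Of the 8 tested, 3 were called lower at 1.5-fold, as were 5.48% of all genes tested. The 6 smooth muscle and mural markers summed to 3455 to 3627 CPM in controls and 4131 to 4496 CPM with the mimic (3 rose and 0 fell of 5 tested). Macrophage markers (8 genes) were at 12.4 to 15.8 CPM in sum in every library, with 1 of 4 tested lower. Endothelial markers (6 genes) were at 8.68 to 9.92 CPM in controls and 5.35 to 6.20 CPM with the mimic, with 1 of 4 tested lower. That 1 gene held most of the endothelial sum in controls, at a mean of 6.05 CPM against 2.43 CPM with the mimic. Fewer cells of a type and less RNA per cell cannot be told apart in such samples, and the part of these shifts in the clock gene values was not tested.

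The RefSeq sequence of the miRNA named by the labels is shown first because its seed, bases 2 to 8 counted from the 5′ end and given in capitals, defines the matches looked for in the clock transcripts. RefSeq places mature miR-182-5p at chr6:30165962-30165986 of GRCm38.p6 on the minus strand. The study's methods print a different sequence, with another seed, under this name, and which of them the mimic carried was not checked here. All matches below rest on the RefSeq sequence.
mmu-miR-182-5p: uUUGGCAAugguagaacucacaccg
A transcript pairs with the seed through TTGCCAA, or through TGCCAAA when bases 2 to 7 pair and an A follows. The longest of these matches is TTGCCAAA, which contains both. Each gene was represented by its GENCODE protein-coding transcript with the longest coding sequence. Among 11296 genes tested with a 3′-UTR in that annotation, 11.2% held TTGCCAA in it, 12.7% held TGCCAAA and 4.56% held TTGCCAAA.

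Clock stood out among the 10 transcripts by these matches. Its 3′-UTR of 6831 nucleotides held TTGCCAAA at 2 places, which 26 of the 11296 genes (0.23%) did. None of the other 9 transcripts held TTGCCAA in its 3′-UTR. That of Clock was also the longest of the 10, followed by Nr1d2 at 2631 nucleotides, and no share here is scaled for length. The transcript rule left Arntl a 3′-UTR of 221 nucleotides, whereas its exons span 7523 bases in all. The 2 Clock sites begin at base 252 and at base 6296 of the Clock 3′-UTR, at chr5:76216440-76216447 and chr5:76210396-76210403 of GRCm38 on the minus strand. They are shown with their neighbouring bases, with the match in capitals.
Clock 3′-UTR, near site: gaaagagtataTTGCCAAAtgctaacaagc
Clock 3′-UTR, far site: tgtttacccctTTGCCAAAactagaaatat
Nr1d2 and Per2 held the shorter match TGCCAAA in the 3′-UTR, at chr14:18206412-18206418 and chr1:91416386-91416392, both on the minus strand.
Nr1d2 3′-UTR: actttttcatcTGCCAAAgccaaaatacca
Per2 3′-UTR: aaacacaaaacTGCCAAAaccttctctctt
Nr1d1 held TTGCCAAA in the coding sequence, at chr11:98769772-98769779 on the minus strand, and neither 7-base match in its 5′-UTR of 585 nucleotides or in its 3′-UTR of 288 nucleotides.
Nr1d1 coding sequence: ggtggtagagtTTGCCAAAcacatcccagg
Arntl, which rose, also held the longest match in its coding sequence, at chr7:113293227-113293234 on the plus strand.
Arntl coding sequence: tccaaaagataTTGCCAAAgttaaggaaca
Npas2, Cry1 and Cry2 held TTGCCAA in the coding sequence, Per2 also held TGCCAAA there, and Per1 and Per3 held neither match anywhere in the transcript. A match is a run of letters and was not tested as a binding site. The absence of these letters from the Nr1d1 5′-UTR likewise says nothing about sites of another kind. The study predicted one there and reported that the mimic lowered a reporter carrying this 5′-UTR but not a mutated form. It also reported lower Nr1d1 mRNA in primary white adipocytes with the miRNA overexpressed, and in subcutaneous fat after agomir injection or cold exposure. Higher Nr1d1 mRNA was reported in fat of mice heterozygous for loss of the miRNA and in adipocytes after its knockdown. In the study, Nr1d1 overexpression lowered FGF21 protein in adipocytes, and Nr1d1 knockdown raised FGF21 in adipocytes cultured with macrophages. The 3 genes with a match in the 3′-UTR, Clock, Nr1d2 and Per2, were all lower with the mimic, as were 2 of the 7 genes without one, Nr1d1 and Per3. Either match in the 3′-UTR was held by 18.3% of the 11296 genes. Among all genes tested 23.5% were lower by adjusted p. That share was not taken for genes with a match, and whether the match bears on the direction was not tested.

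**Figure D2:**
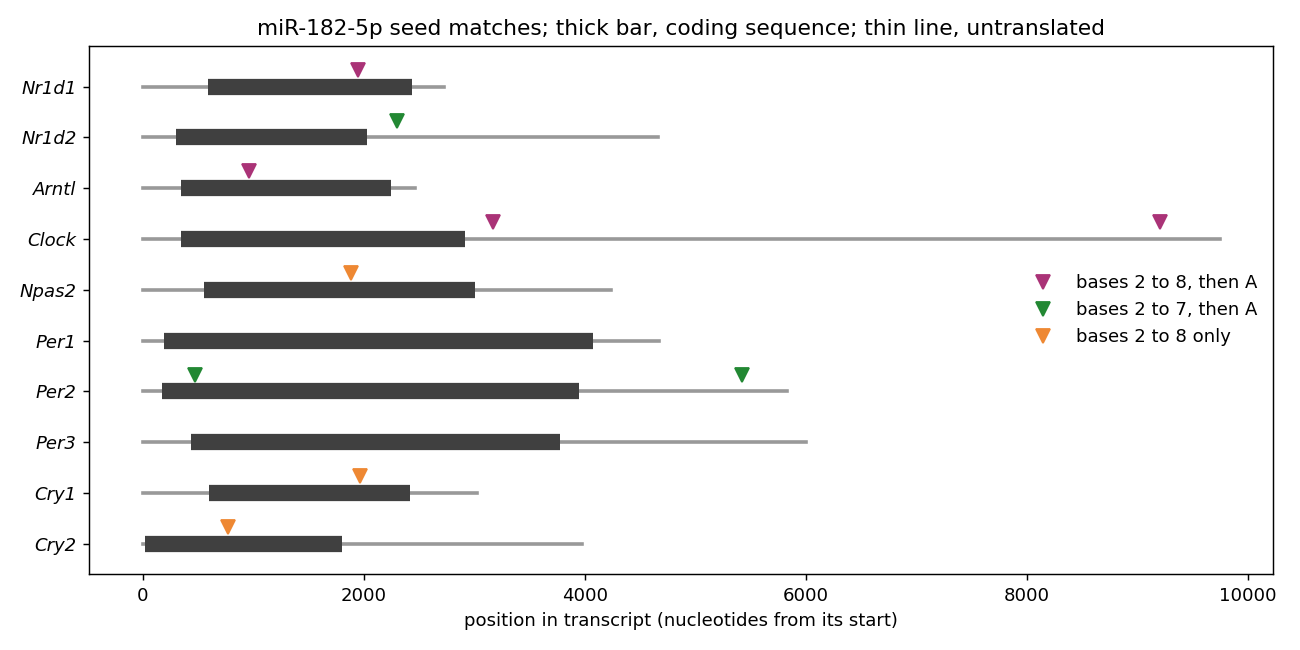
Position of miR-182-5p seed matches (triangles) along the transcript used for each core clock gene, in nucleotides from the transcript's start; thick bars are coding sequence and thin lines are untranslated regions. Clock has 2 long matches in its 3′-UTR, whereas the match in Nr1d1 lies in the coding sequence.

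Nr1d1, the clock gene at the centre of the study's proposal, lies at chr11:98767932-98775333 on the minus strand of GRCm38. It measured 27.7, 29.4 and 28.8 CPM in control replicates 1 to 3 and 24.0, 25.1 and 24.9 CPM in mimic replicates 1 to 3, on 661 to 767 reads per library. Every mimic sample lay below every control sample, and the gap was narrow beside the level itself. The change was -0.22 on the log2 scale (SE 0.051, adjusted p = 0.00299 by edgeR), with a 95% interval from 0.797-fold to 0.928-fold. By p value Nr1d1 ranked at 3583 of the 13117 genes, and 38.1% of all genes tested changed by a larger factor. It kept this direction and an adjusted p of at most 0.0163 under all 12 alternative analyses.

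The counts of Nr1d1 have a particular limit in its neighbour. The 3′ ends of Nr1d1 and of Thra, which encodes the thyroid hormone receptor α, overlap on opposite strands over 263 bases, 8.5% of the Nr1d1 exon bases. The libraries keep the strand, but whether the counting used it is not given in the sources used here. Thra fell from 54.8 to 57.4 CPM in controls to 42.7 to 46.0 CPM with the mimic, a log2 fold change of -0.34 (SE 0.044, adjusted p = 2.5e-05), and its part in the Nr1d1 counts was not tested.

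Nr1d2 (chr14:18204054-18239127, minus strand) encodes REV-ERBβ, which shares DNA sites and many functions with REV-ERBα. It measured 46.2, 43.5 and 42.7 CPM in control replicates 1 to 3 and 34.9, 34.0 and 30.0 CPM in mimic replicates 1 to 3. The fall was larger than that of Nr1d1, at a log2 fold change of -0.42 (SE 0.059, adjusted p = 4.59e-05). Of its 50-base stretches, 5.13% also occur in transcripts of another annotated gene, so some of its reads may not have been counted as unique. Per kilobase of exon, Nr1d1 stood above Nr1d2 in controls, at 9.31 ± 0.271 and 8.16 ± 0.346 CPM per kilobase (SD, n = 3 each). With the mimic these levels were 8.01 ± 0.191 and 6.09 ± 0.487 CPM per kilobase (SD, n = 3 each).

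Arntl (chr7:113207465-113314126, plus strand) encodes BMAL1 and is the classical target of REV-ERB repression. Its levels were 25.9, 22.8 and 24.4 CPM in control replicates 1 to 3 and 35.6, 37.1 and 35.1 CPM in mimic replicates 1 to 3. The mimic samples all exceeded the highest control by more than the spread within either group. The log2 fold change of 0.56 (SE 0.056, adjusted p = 1.82e-06) fell just short of the 1.5-fold line at 0.585, and 357 of 13117 genes placed Arntl or higher when ranked from the largest increase. Without mimic control replicate 1 the value was 0.61 and Arntl passed both cutoffs, making it the single core clock gene called in that fit.

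Clock (chr5:76209868-76304792, minus strand), which encodes the usual partner of BMAL1, moved the other way. It measured 88.1, 90.6 and 88.9 CPM in control replicates 1 to 3 and 58.2, 60.5 and 64.6 CPM in mimic replicates 1 to 3. The groups were far apart, with the lowest p value among the 10 genes (rank 315 of 13117), with a log2 fold change of -0.55 (SE 0.040, adjusted p = 8.64e-08). The interval of the change, 0.645-fold to 0.727-fold, reaches past the 1.5-fold line (0.667-fold). Npas2 (chr1:39193731-39363236, plus strand), whose product can take the place of CLOCK beside BMAL1, was the least abundant member and measured 3.77, 2.95 and 3.26 CPM in control replicates 1 to 3 and 4.93, 4.52 and 3.47 CPM in mimic replicates 1 to 3. Mimic replicate 3 lay inside the control range. The log2 fold change was 0.37 (SE 0.15, adjusted p = 0.0539, 95% interval 0.05 to 0.70), and it was 0.51 (adjusted p = 0.00965) without miR-182-5p mimic replicate 3 and 0.47 (adjusted p = 0.0444) without mimic control replicate 1.

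Because reads of 2 genes in the same library share its scaling, the balance within the activator pair can be read without normalization. Clock had 3.40, 3.97 and 3.65 reads for each Arntl read in control replicates 1 to 3 and 1.64, 1.63 and 1.84 in mimic replicates 1 to 3. The ratio of Arntl to Clock was thus 2.16-fold higher with the mimic (p = 0.1 in a two-sided exact permutation test, the lowest value that 3 samples against 3 allow). Arntl had 0.933, 0.776 and 0.845 reads per Nr1d1 read in controls and 1.48, 1.48 and 1.41 with the mimic, a 1.72-fold difference of the mean log2 ratio with the same p. In controls Nr1d1 had more reads than Arntl in every sample, and with the mimic Arntl had more in every sample. That crossing holds for reads only, since the exons of Arntl span 7523 bases and those of Nr1d1 3077. Per kilobase of exon Nr1d1 stayed above Arntl, at means of 9.31 against 3.24 CPM per kilobase in controls and 8.01 against 4.77 with the mimic. In all, 7 such ratios were computed, and each gave p = 0.1 in the exact test, or 0.1 after Benjamini-Hochberg adjustment over the 7. The ratios were chosen after the values were seen, so the test adds no support to differences already seen.

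**Figure D3:**
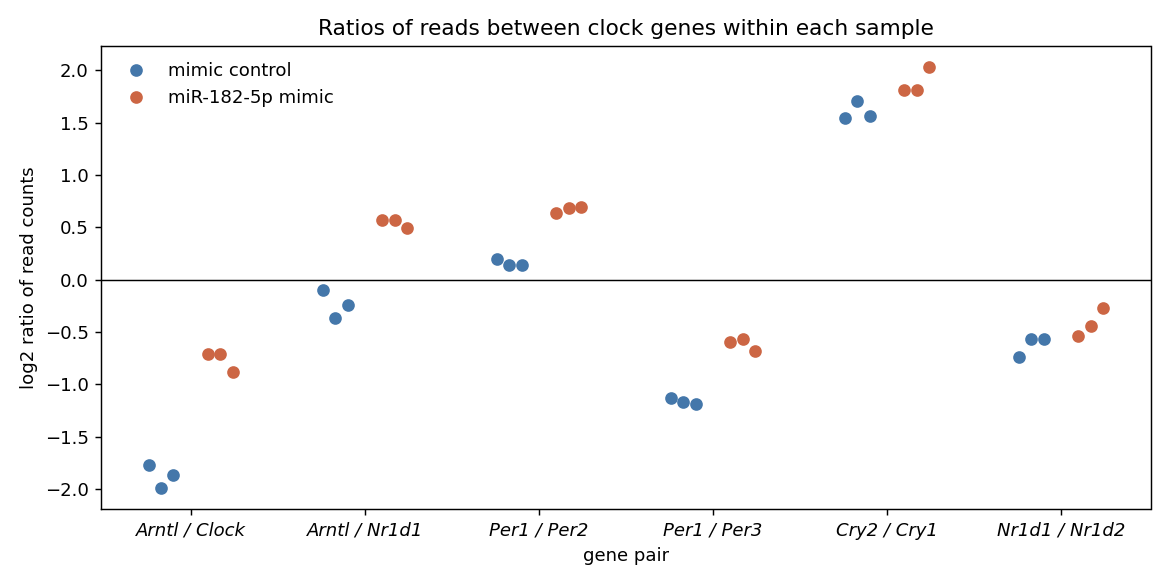
Log2 ratio of read counts between pairs of core clock genes (vertical axis) in each mimic control sample (blue) and each miR-182-5p mimic sample (orange). The ratios of Arntl to Clock and of Arntl to Nr1d1 are higher in all 3 mimic samples. The second changes sign as a ratio of reads, which is not scaled for exon length.

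The 3 period genes, whose products form the PER part of the repressor complex, did not move together. Per1 (chr11:69095217-69109960, plus strand), which also responds quickly to hormones and cAMP, rose from 34.6, 30.8 and 32.9 CPM in control replicates 1 to 3 to 37.7, 39.3 and 37.3 CPM in mimic replicates 1 to 3. Per2 (chr1:91415982-91459324, minus strand) fell from 30.2, 28.1 and 29.9 CPM to 24.3, 24.5 and 23.1 CPM in the same order. Per3 (chr4:151003652-151044665, minus strand) fell from 75.5, 69.2 and 74.6 CPM to 56.9, 58.3 and 59.9 CPM. The groups were separate for each of the 3 genes. The log2 fold changes were 0.22 for Per1 (SE 0.052, adjusted p = 0.00353), -0.30 for Per2 (SE 0.053, adjusted p = 0.000419) and -0.33 for Per3 (SE 0.042, adjusted p = 2.12e-05). As a result Per1 had 1.10 to 1.14 reads for each Per2 read in controls and 1.55 to 1.61 with the mimic, a 1.43-fold difference (p = 0.1, exact test).

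The cryptochrome genes encode the proteins that, with PER, hold BMAL1-CLOCK inactive. Cry2 (chr2:92403646-92434043, minus strand) rose from 59.5, 56.7 and 57.9 CPM in control replicates 1 to 3 to 69.0, 72.2 and 74.2 CPM in mimic replicates 1 to 3, with a log2 fold change of 0.31 (SE 0.040, adjusted p = 2.16e-05). A transcript of the opposite strand shares 4.7% of the Cry2 exon bases. Cry1 (chr10:85131700-85185064, minus strand), which is under REV-ERB control besides its E-boxes, measured 20.4, 17.4 and 19.6 CPM in controls and 19.7, 20.6 and 18.2 CPM with the mimic, so the groups overlapped. The difference of 0.02 on the log2 scale (SE 0.071, adjusted p = 0.798) has a 95% interval from 0.915-fold to 1.13-fold, and changes within that range were not detectable with these samples. Without mimic control replicate 2 it was -0.04, and without miR-182-5p mimic replicate 2 it was -0.01.

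Set per kilobase of exon, the control levels ran from Nr1d1 and Cry2 (9.19 ± 0.220 CPM per kilobase, SD, n = 3) at the top to Npas2 (0.694 ± 0.0868) at the bottom. Nr1d1 and Cry2 did not differ by more than their spread, and neither did Per1 (5.82 ± 0.337) and Cry1 (5.74 ± 0.466). Clock (6.50 ± 0.0907) was above Arntl (3.24 ± 0.207), by less than its reads alone would show, because its exons span 13727 bases against 7523. With the mimic Cry2 was the highest at 11.4 ± 0.414 CPM per kilobase, and Clock (4.45 ± 0.235) and Arntl (4.77 ± 0.143) stood closer together than in controls. Exon lengths are those of the GENCODE M21 annotation of GRCm38, while the reads were counted on mm9 with an annotation not given in the sources used here, so these levels are approximate.

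**Figure D4:**
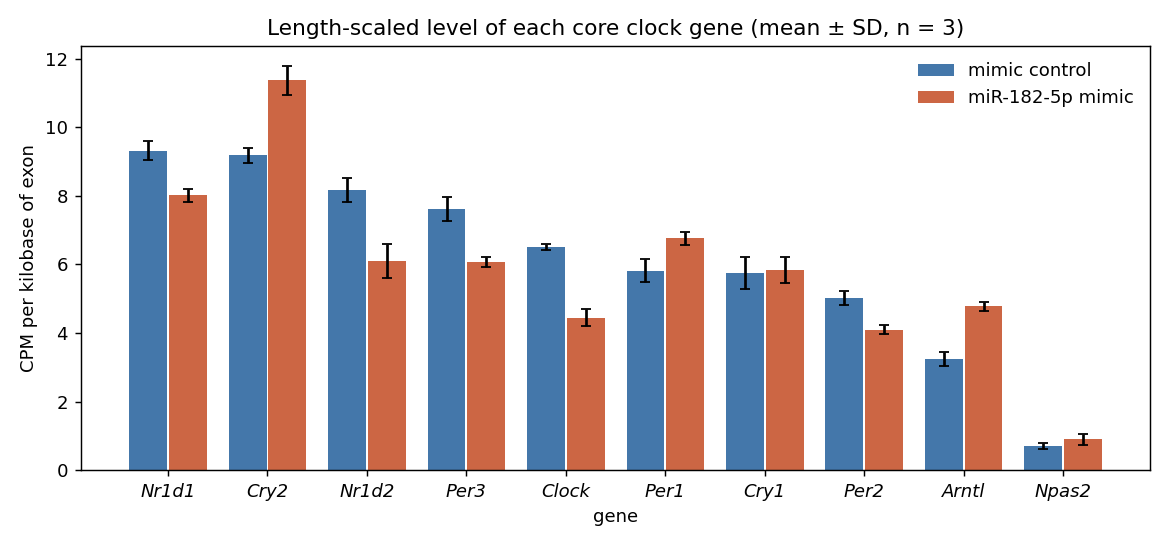
Length-scaled level of each core clock gene in CPM per kilobase of exon (bars from 0, mean; error bars, SD over 3 samples), ordered by the mimic control level. Npas2 is the lowest in both groups, and Clock and Arntl lie closer together with the mimic than in controls.

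The genes directly downstream of the clock were described from a list of 11 output and ROR genes, all of which were tested. By adjusted p 2 rose, 2 fell and 7 did not pass, so 36.4% passed, fewer than the 46.7% of all genes tested. Dbp, a PAR bZip activator that is among the strongest E-box targets of BMAL1-CLOCK, fell from 29.4 to 31.5 CPM in controls to 19.4 to 23.0 CPM with the mimic (log2 fold change -0.55, SE 0.065, adjusted p = 9.14e-06). Of the Dbp exon bases, 18.0% overlap the gene Sphk2 on the opposite strand. Nfil3, which encodes the repressor E4BP4 that competes with DBP for D-box sites and is itself repressed by REV-ERB, rose from 57.8 to 62.2 CPM to 75.8 to 81.3 CPM (log2 fold change 0.39, SE 0.040, adjusted p = 2.71e-06). Ciart, listed in the files under its older symbol Gm129 and encoding a repressor of BMAL1-CLOCK, rose from 3.46 to 4.44 CPM to 5.05 to 6.30 CPM (log2 fold change 0.50, SE 0.13, adjusted p = 0.0051). Tef, a relative of Dbp, changed by -0.09 (adjusted p = 0.0342), a call that was lost without mimic control replicate 1 or 3 and without miR-182-5p mimic replicate 1 or 3 (adjusted p up to 0.134). The receptors Rora and Rorb, which activate through the RORE sites that REV-ERB proteins occupy, did not pass, with log2 fold changes of 0.24 and -0.16 and adjusted p of 0.164 and 0.519.

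**Figure D5:**
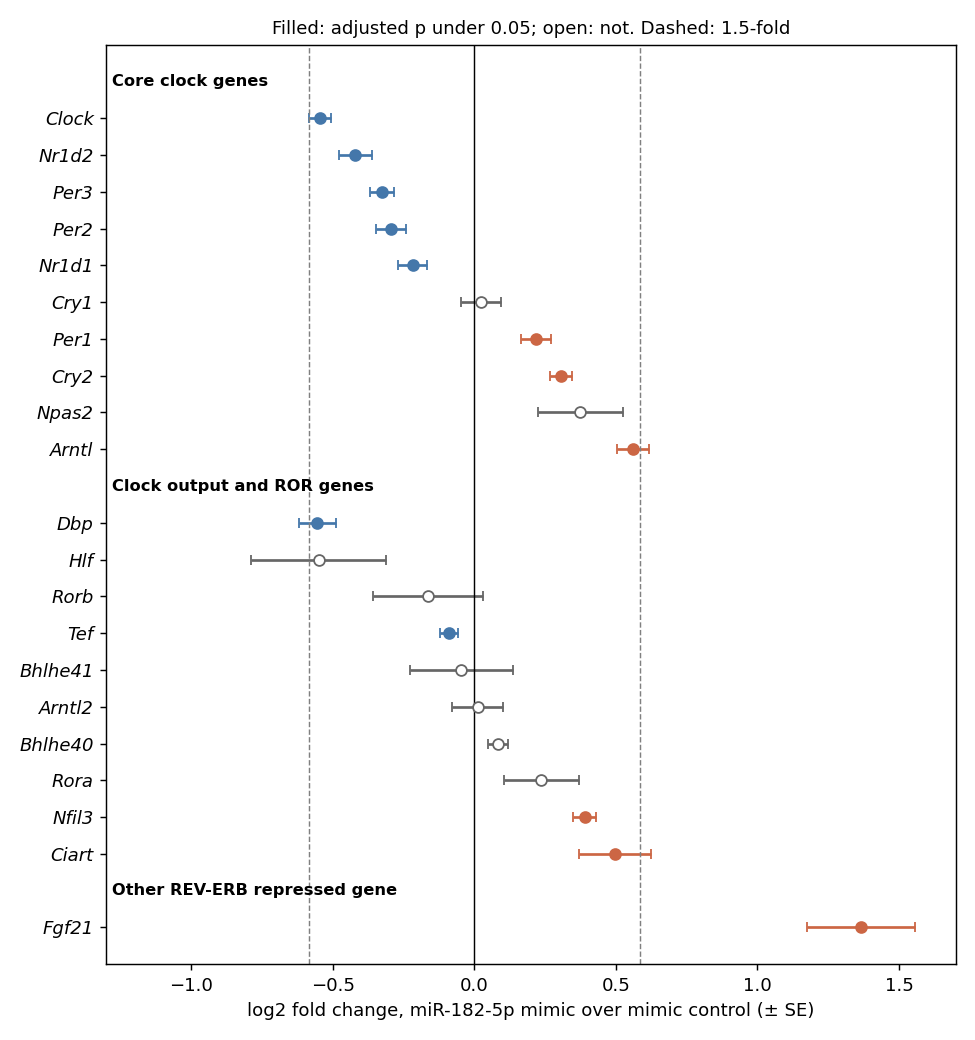
Log2 fold change (horizontal axis, miR-182-5p mimic over mimic control, with SE) of the core clock genes, of 10 of the 11 clock output and ROR genes, and of Fgf21; filled points have an adjusted p under 0.05 and dashed lines mark a 1.5-fold change. Arntl, Clock and Dbp lie closest to the dashed lines among the clock genes with filled points, and Fgf21 lies beyond them.

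How this pattern relates to a loss of Nr1d1 was read from 8 genes widely described as repressed by REV-ERB proteins. Ucp1, the uncoupling protein of thermogenic fat, had 0 to 6 reads per library and was not tested. Of the 7 others, 4 rose by adjusted p, Arntl, Nfil3 and Fgf21 among them, which 23.2% of all genes tested did. Clock fell, which 23.5% of all genes did, and Npas2 (0.37) and Cry1 (0.02) did not pass. The median log2 fold change of the 7 was 0.39, against -0.004 for all genes tested. Fgf21 rose by 1.37 on the log2 scale (SE 0.19, adjusted p = 4.31e-05), at a low level. It had 24 to 39 reads per control library (0.943 to 1.49 CPM) and 81 to 103 per mimic library (2.77 to 3.65 CPM). Its log2 fold change ranged from 1.19 to 1.49 under the 12 alternative analyses. Of the 7 genes, 2 met the 1.5-fold cutoff as well, Fgf21 among them, which 1.97% of all genes tested did in that direction. All values come from the same 3 control and 3 mimic samples, and the list was drawn up with earlier results of these data known, so the direction of its members is not independent evidence.

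The genes driven by BMAL1-CLOCK through E-boxes moved in both directions, as did all genes tested (23.2% higher and 23.5% lower by adjusted p). Of 13 such genes, 7 of them core clock genes, 4 rose (Per1, Cry2, Ciart and Nampt), 6 fell (Nr1d1, Nr1d2, Per2, Per3, Dbp and Tef) and 3 did not pass (Cry1, Bhlhe40 and Bhlhe41). Their median log2 fold change was -0.05. Nampt, which encodes an enzyme of NAD synthesis, changed by only 0.08 (adjusted p = 0.0359), and its call was lost without mimic control replicate 1 and without any of the 3 miR-182-5p mimic replicates (adjusted p up to 0.163). Opposite directions were thus present within the same class of genes, as between Per1 and its relatives Per2 and Per3 or between Ciart and Dbp.

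Genes that modify clock proteins moved in either direction. Of 15 kinases, phosphatases and ubiquitin pathway genes, 6 rose, 3 fell and 6 did not pass, against 23.2% higher and 23.5% lower among all genes tested, and 1 met the 1.5-fold cutoff. That gene was Ppp1ca, a catalytic subunit of protein phosphatase 1, which acts on PER proteins. It fell from 274 to 283 CPM to 171 to 175 CPM (log2 fold change -0.69, SE 0.027, adjusted p = 1.4e-10), and 5.48% of all genes tested were called lower. It shares 8.9% of its exon bases with Rad9a on the opposite strand. Ppp1cb, another catalytic subunit gene, rose by 0.26 (adjusted p = 1.04e-05). Among the kinases, Csnk1e, which marks PER proteins for degradation, fell (log2 fold change -0.23, adjusted p = 0.000234), while its relative Csnk1d was at 0.07 (adjusted p = 0.0516). Gsk3b rose by 0.28 (adjusted p = 1.52e-06) and Csnk2a1 by 0.16 (adjusted p = 0.0128). The AMPK subunit genes, whose kinase promotes the breakdown of CRY1, changed in opposite directions, with Prkaa2 at 0.50 (adjusted p = 6.72e-05) and Prkaa1 at -0.20 (adjusted p = 0.000631). Huwe1, a ubiquitin ligase that acts on REV-ERBα, was at 0.09 (adjusted p = 0.0209) and the deubiquitinase gene Usp2 at 0.24 (adjusted p = 0.0121).

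REV-ERB proteins repress by recruiting the corepressor NCoR and the histone deacetylase HDAC3. Of 6 genes of that complex 3 rose, none fell and none reached 1.5-fold, where 23.2% of all genes tested rose and 23.5% fell. Ncor1 rose by 0.17 on the log2 scale (adjusted p = 0.000328), and Tbl1x by 0.11 (adjusted p = 0.0278). The call of Tbl1x was lost in every fit that left out a library except the one without miR-182-5p mimic replicate 1 (adjusted p up to 0.12). Hdac3 was at -0.04 (adjusted p = 0.489).

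The sequences just before the members' start sites were searched for the elements the loop works through, the E-box CACGTG and the RORE core TAGGTCA, on either strand and in the window from 250 bases before to 50 bases after each RefSeq start on GRCm38.p6. These are shown because the members that carry them are read in opposite ways by the loop. Of the 10 members 9 had an entry and Per2 had none. An E-box was found for Per1 and Cry1 and the RORE core for Arntl. Among all 27025 genes with an entry, 8.09% held the E-box and 2.97% the RORE core. The window of Nfil3 also held the RORE core, on the strand opposite to the gene, so that it reads TGACCTA on the gene's own strand. Capitals mark the motif.
Arntl, chr7:113207530-113207559, plus strand: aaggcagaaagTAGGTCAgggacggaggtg
Nfil3, chr13:52981033-52981062, minus strand: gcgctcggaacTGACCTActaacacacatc
Per1, chr11:69098771-69098800, plus strand: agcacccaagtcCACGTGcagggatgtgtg
Cry1, chr10:85185097-85185126, minus strand: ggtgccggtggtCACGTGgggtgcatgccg
The core of Arntl belongs to the later of its 2 RefSeq starts and begins 30 bases after the start site and that of Nfil3 12 bases before it. Arntl and Nfil3, which hold the RORE core, both rose with the mimic. Per1, which holds the E-box, rose too, and Cry1 did not pass the test. Of the other list genes with an E-box in the window, Ciart and Fgf21 rose, Tef fell and Bhlhe41 did not pass. Among all genes tested 23.2% rose by adjusted p. The windows of Nr1d1, Nr1d2, Clock, Npas2, Per3 and Cry2 held neither run of letters, which says nothing about sites farther away.

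Across the 6 samples the genes outside the list whose log2 CPM ran most like that of Nr1d1 were Siae, Gpm6b and Il1rn, with Pearson correlations of 0.9997, 0.9993 and 0.998. They are the highest of 13107 genes compared over only 6 samples in 2 groups, and are given as a description. Their log2 fold changes were -0.28, -0.11 and -0.37.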

How the data were processed

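The deposited values are raw counts of reads for each gene symbol, in 1 list per library. The submitters' processing notes name bcl2fastq, TopHat2, HTSeq and the build mm9, without versions or roles. Annotation and strand setting are not given in the sources used here. The 5 tally lines that name no gene held 47.4% to 47.9% of all entries per library, mostly alignments that are not unique, and were left out.

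The 3 libraries with mimic control and the 3 with miR-182-5p mimic were grouped by their titles. Counts were tested in R 4.3.3 with edgeR 4.0.16 (TMM, filterByExpr with a minimum count of 10, glmQLFit, glmQLFTest, no block), two-sided, with Benjamini-Hochberg adjustment over 13117 genes. Standard errors and 95% intervals were derived from the quasi-likelihood F statistic. Correlations used log2(CPM + 0.1). Alternatives were DESeq2 1.42.0, limma-voom (limma 3.58.1), DESeq2 size factors, upper-quartile factors, no filter, the replicate number as a block and each library left out. The edgeR step was also run on simulated data, the outcome of which is not reported here, so no error rate is given. Replicates were not copies of one library (chi-square of counts per degree of freedom 2.12 to 7.18). The largest values were those of mimic replicate 1 against mimic replicates 2 and 3 (4.99 and 7.18). Mimic replicates 2 and 3 gave 2.12, and the control pairs 2.53 to 3.09.

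The 10 members and all gene lists were chosen with earlier results of these data known. Named genes are the members, list genes with an adjusted p under 0.05, Fgf21, Thra, Mir182, the 3 genes most like Nr1d1, and the 2 largest changes of a list where fewer than 2 passed; others named were picked after their values were seen. Some list genes are counted but not reported here by name. Gene positions and transcripts are from GENCODE M21 (GRCm38), and miRNA and promoter sequences from RefSeq. No coordinate was taken from mm9. Python 3.11.15 was used for sequences and figures.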

Additional observations from a re-analysis of the deposited data

How the results depend on the processing

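Of 120 log2 fold changes of core clock genes under 12 alternatives, 115 kept their direction and their side of the adjusted p of 0.05. The others concern Npas2, which passed without a filter on low counts (0.38, adjusted p = 0.0494), and Npas2 and Cry1 with 1 library left out, where they ranged from 0.26 to 0.51 and from -0.0393 to 0.0768. Cry1 was below 0 without mimic control replicate 2 (-0.0393) and without miR-182-5p mimic replicate 2 (-0.0103). The number of core clock genes called ranged from 0 to 1 with 1 library left out, the 1 being Arntl without mimic control replicate 1. With DESeq2, limma-voom and the other scalings it was 0. Of 276 values of other named genes, 254 kept direction and call. The calls of Nampt, Tef, Tbl1x, Huwe1, Csnk2a1 and Usp2 were lost in 1 or more fits that left out a library, Csnk2a1 without mimic control replicate 1 (0.12, adjusted p = 0.0663) and Usp2 without mimic control replicate 3 (0.18, adjusted p = 0.0667). Huwe1 was lost without mimic control replicate 2 (0.08, adjusted p = 0.0837) and without miR-182-5p mimic replicate 3 (0.07, adjusted p = 0.0756). The call of Tef was also lost with DESeq2 (adjusted p = 0.084), and that of Nampt with DESeq2 (0.0501) and with upper-quartile factors (0.0715). With the replicate block the counts were 925 genes called, 5716 past the adjusted p and 8 core clock genes past it, against 977, 6124 and 8 without it. Same-numbered libraries deviated from their group means with correlations of -0.185, -0.0436 and -0.0785, so the numbers were not taken as pairs. Only Nampt and Tef lost their call with the block (adjusted p = 0.0558 and 0.0619). With 3 samples a group, Npas2 at 77 to 144 reads has the widest interval of the core clock genes.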
